A study of Mus musculus with 18 samples.

Results

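miR-9 was described here through both arms of its hairpin, the features mmu-miR-9-5p and mmu-miR-9-3p, which were taken by name from the rows of mature miRNAs. They are 2 of 1978 mature miRNAs in the count table, of which 1054 had at least 1 count. Both arms had counts in all 18 libraries, and both passed the filter on low counts in every comparison.

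Small RNA was sequenced from brain cells of mice aged 10 months, which were wild type (WT) or carried the Atxn2-CAG100-KIN allele (KIN). This allele puts a CAG expansion in place of the single glutamine of mouse ATXN2 and models a hereditary ataxia. The study describes the KIN mice as homozygous, on a C57BL/6 background, with WT littermates of the same sex as controls, and no animal was treated. Brain tissue was dissociated, microglia were bound by magnetic beads against CD11b, astrocytes by beads against ACSA-2, and neurons were collected as the cells left unbound by a cocktail against other cell types, so that each fraction is enriched and not pure. The 6 groups were the astrocyte, microglia and neuron fractions of WT and of KIN brains, with 3 libraries in each. The study took 3 animals of each genotype and drew all fractions in turn from the same brain, so libraries of different fractions are not independent, although the labels do not say that a replicate number marks a brain.

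miRNAs are cut from hairpin precursors by Drosha and Dicer, and one strand is loaded into an Argonaute protein, which it guides to messenger RNAs through its seed. miR-9 is among the most abundant miRNAs of the vertebrate brain and is typical of neural progenitors, astrocytes and many neurons, where its targets include regulators of neurogenesis such as Nr2e1 (TLX), Onecut factors and REST. Both arms of its hairpin can be loaded, and they carry different seeds and thus different sets of targets.

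Both mature sequences are shown because every count below rests on them, with the seed (bases 2 to 8) in capitals, and miR-9b-3p is added because its sequence bears on how the 5p arm was counted (RefSeq, 5′ to 3′).
mmu-miR-9-5p: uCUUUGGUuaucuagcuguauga
mmu-miR-9-3p: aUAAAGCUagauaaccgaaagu
mmu-miR-9b-3p: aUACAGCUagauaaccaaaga
None of the other mature miRNAs among the 1679 in the RefSeq table shared a seed with either arm of miR-9. miR-9b-3p is read from the opposite strand of the same loci, and all of its 21 bases are the reverse complement of bases 1 to 21 of miR-9-5p. The reverse complement of miR-9b-5p likewise matched bases 1 to 19 of miR-9-3p. Since the authors counted without use of strand, a read of one strand and its partner on the other cannot be told apart by strand in these counts.

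The arms of miR-9 are encoded identically at 3 loci, so a mature read cannot be assigned to a locus. The hairpins are shown with both arms in capitals to make this visible, since they differ only outside the capitals.
Mir9-1: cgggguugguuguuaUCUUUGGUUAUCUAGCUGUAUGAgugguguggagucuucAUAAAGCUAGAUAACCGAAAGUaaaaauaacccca
Mir9-2: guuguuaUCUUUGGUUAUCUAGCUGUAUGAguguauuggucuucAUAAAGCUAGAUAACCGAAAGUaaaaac
Mir9-3: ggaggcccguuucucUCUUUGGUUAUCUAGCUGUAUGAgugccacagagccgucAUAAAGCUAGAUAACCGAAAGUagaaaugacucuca
In GRCm39, the build that mm39 also names, Mir9-1 lies at chr3:88122905-88122993, Mir9-2 at chr13:83886933-83887004 and Mir9-3 at chr7:79155012-79155101, all on the plus strand, and each RefSeq hairpin equalled the genome sequence there. Each hairpin sits within a long noncoding RNA gene of the same strand in GENCODE vM39. Mir9-1 lies in Gm3764, where it is intronic in 34 of the 35 transcripts that span it, and on the other strand it overlaps Mir9b-1 and Gm65761. Mir9-2 lies in Mir9-2hg, intronic in 45 of 58 spanning transcripts and inside an exon of the other 13, and Mir9-3 lies in Mir9-3hg, intronic in 16 of 17.

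Libraries held 3144427 to 4316748 counts in both glial fractions and 1211118 to 2427384 in the neuron fraction, the lowest being WT replicate 1. Mature miRNAs took 5.05% to 10.3% of the counts in astrocytes, 5.09% to 8.45% in microglia and 0.964% to 2.13% in neurons, so that a share of the library total and a share of the miRNAs rank the fractions differently. The unit of level used below, CPM, is a count scaled to a common library total. The microglial miRNAs mmu-miR-142a-3p, mmu-miR-142a-5p and mmu-miR-223-3p summed to 2835 to 5914 CPM in microglia and 10.2 to 377 CPM elsewhere. Fragments of 7 astrocyte messenger RNAs summed to 80.0 to 280 CPM in astrocytes and at most 11.8 CPM elsewhere, although oligodendrocyte miRNAs (1770 to 5112 CPM) and miRNAs of ependyma and choroid plexus (1410 to 2965 CPM) were also high in that fraction. The neuron fraction was less clear: fragments of 7 neuronal messenger RNAs had medians of 34.7 (WT) and 15.4 CPM (KIN) in neurons against 20.6 and 6.11 CPM in astrocytes, while 4 neuronal miRNAs led by mmu-miR-124-3p had medians of 129 and 110 CPM in neurons but 1481 and 1728 CPM in astrocytes. Xist, the RNA that coats the inactive X chromosome, was at 1.27 to 2.13 CPM in KIN replicate 1 of each fraction and at 7.59 to 36.3 CPM in all other libraries. The study's methods describe same-sex pairs of KIN and WT littermates, most of them male, and no WT library had low Xist, so these values go against that description. Leaving out KIN replicate 1 of any fraction changed no call of either arm, and the part of sex in the results was not tested otherwise.

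mmu-miR-9-5p was among the leading miRNAs of astrocytes. It stood at 5031, 7941 and 5929 CPM in the WT libraries and at 6375, 6490 and 6166 CPM in the KIN libraries, the highest or second highest mature miRNA in each of these 6 libraries. In neurons it reached 519, 1635 and 958 CPM in WT and 3052, 1668 and 2368 CPM in KIN. In microglia it was at 188, 74.0 and 218 CPM in WT and at 52.7, 62.1 and 54.5 CPM in KIN, ranking between 42 and 106 among mature miRNAs. The fractions did not overlap within a genotype.

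Ordered by mean level per library total, mmu-miR-9-5p was highest in KIN astrocytes (6344 ± 164 CPM, SD, n = 3) and WT astrocytes (6301 ± 1490), followed by KIN neurons (2363 ± 692), WT neurons (1037 ± 562), WT microglia (160 ± 75.9) and KIN microglia (56.4 ± 4.98). The ranges of both astrocyte groups overlapped, and no other neighbours in this order did, although KIN and WT neurons were separated only by 1668 against 1635 CPM.

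mmu-miR-9-3p was lower than the 5p arm in every library. It was at 805, 1555 and 969 CPM in WT astrocytes and 905, 845 and 760 CPM in KIN astrocytes, at 444, 631 and 540 CPM in WT neurons and 1027, 585 and 642 CPM in KIN neurons. In microglia it was at 22.8, 8.35 and 26.7 CPM in WT and 6.35, 6.49 and 5.59 CPM in KIN, the last group resting on 20 to 28 counts per library. For this arm the neighbours WT astrocytes, KIN astrocytes, KIN neurons and WT neurons overlapped in turn, whereas WT neurons lay above WT microglia and these above KIN microglia without overlap.

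**Figure D1:**
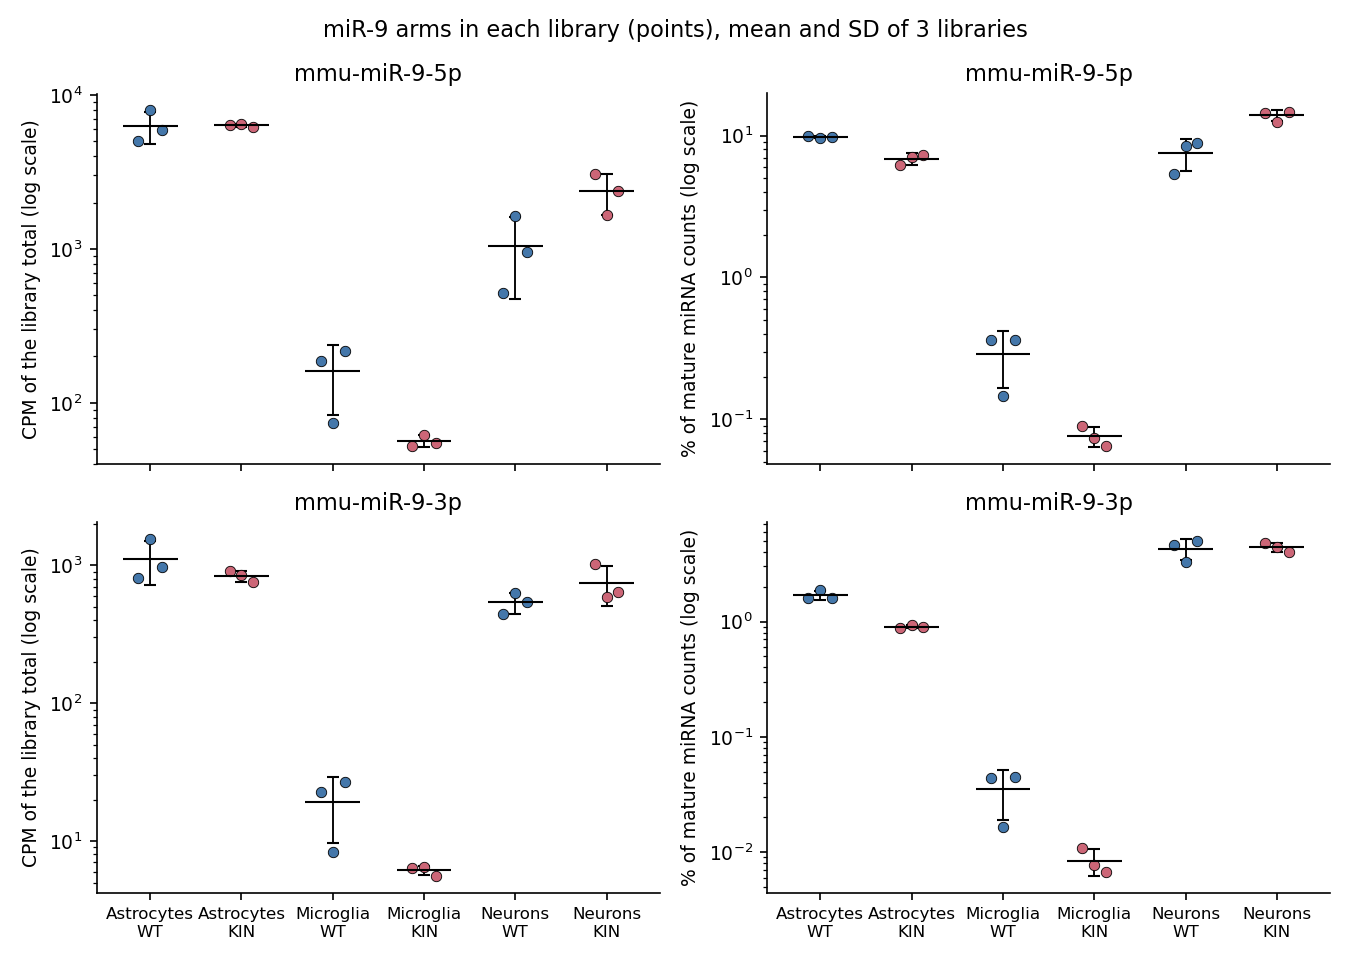
Level of each miR-9 arm in the 18 libraries, as CPM of the library total (left) and as percent of all mature miRNA counts (right), on log axes, with points for libraries and bars for mean and SD of 3. On the left the 5p arm is highest in astrocytes (6301 and 6344 CPM), while on the right it is highest in KIN neurons (13.9%).

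As a share of all mature miRNA counts, the picture of neurons against astrocytes was different. mmu-miR-9-5p took 9.96%, 9.56% and 9.74% of mature miRNA counts in WT astrocytes and 6.16%, 7.11% and 7.32% in KIN astrocytes. In neurons it took 5.39%, 8.46% and 8.86% in WT and 14.3%, 12.5% and 14.8% in KIN, where it ranked first in every library. Microglia gave 0.363%, 0.146% and 0.364% in WT and 0.0900%, 0.0734% and 0.0652% in KIN. On this scale the genotypes did not overlap in any fraction, with KIN lower in astrocytes and microglia and higher in neurons.

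For mmu-miR-9-3p the share in astrocytes was 1.69% ± 0.161 of mature miRNA counts in WT and 0.901% ± 0.0256 in KIN (SD, n = 3), again without overlap. Its share was 4.29% ± 0.906 in WT neurons and 4.41% ± 0.410 in KIN neurons, where the libraries overlapped. In microglia it was 0.0350% ± 0.0161 and 0.00840% ± 0.00217. The 3p arm thus held a larger part of the miRNAs in neurons than in astrocytes in every library of both genotypes.

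Between fractions, the level of miR-9 in microglia was far below that in astrocytes and neurons by any scaling used. Counts of all features were tested by edgeR's quasi-likelihood method, with library totals scaled by TMM factors and p-values adjusted by Benjamini and Hochberg. A feature was called when its adjusted p did not exceed 0.05 and its log2 fold change was 1 or more in either direction. In bulk fractions, fewer cells of a type and less RNA per cell cannot be told apart.

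In WT brains, mmu-miR-9-5p was lower in microglia than in astrocytes by a log2 fold change of -5.26 (SE 0.35, edgeR adjusted p = 2.48e-06) and mmu-miR-9-3p by -5.80 (SE 0.42, adjusted p = 3.69e-06). For KIN brains the 5p arm gave -6.68 (SE 0.19, adjusted p = 4.40e-10) and the 3p arm -6.95 (SE 0.23, adjusted p = 1.21e-09). These contrasts were broad, as 31.5% of tested features were called in WT and 35.3% in KIN, where miRNA-based factors moved the share of calls higher in microglia from 39.9% to 53.8%. Of 10 neural miRNAs on a list (miR-124, miR-128, miR-137, miR-138, miR-132, miR-212, miR-125b, miR-7a and miR-153 arms), 8 were lower in microglia than in astrocytes in each genotype and none higher, with medians of -2.43 and -2.99 against -0.22 and 0.05 over all features. Of all mature miRNAs tested, 148 of 418 in WT and 166 of 447 in KIN were lower. Under library totals or miRNA-based factors 7 of the 10 were lower in WT.

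Neurons lay above microglia for both arms. In WT the log2 fold change was 2.55 (SE 0.49, edgeR adjusted p = 0.00401) for the 5p arm and 4.66 (SE 0.46, adjusted p = 0.000350) for the 3p arm, with 28.0% of features called. For KIN the 5p arm gave 4.90 (SE 0.28, adjusted p = 1.88e-12) and the 3p arm 6.45 (SE 0.35, adjusted p = 8.62e-13), with 53.0% called. All 4 values passed the call under each alternative tried, including the omission of any library. Among all called features, the share higher in neurons moved with miRNA-based factors from 48.1% to 93.3% in WT and from 50.5% to 92.3% in KIN.

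Whether neurons or astrocytes held more miR-9 depended on the scaling. With TMM factors from all features, mmu-miR-9-5p was lower in neurons by -2.81 (SE 0.44, edgeR adjusted p = 0.00353) in WT, with 28.7% of features called, and by -1.69 (SE 0.18, adjusted p = 1.24e-10) in KIN, with 46.3% called. mmu-miR-9-3p was lower by -1.27 (SE 0.34, adjusted p = 0.0249) in WT, whereas in KIN its value of -0.41 (SE 0.19, adjusted p = 0.0590) was not called. With TMM factors computed from mature miRNAs alone, the 5p arm gave -0.48 in WT (adjusted p = 0.432) and 1.30 in KIN (adjusted p = 1.23e-05), and the 3p arm gave 1.21 (adjusted p = 0.0299) and 2.58 (adjusted p = 2.37e-13), both called as higher in neurons. That scaling moved the median of all features from -0.50 to 1.79 in WT and from 0.06 to 3.05 in KIN, and the values of both arms lay below this median under either scaling. With factors from all features the median mature miRNA was at -2.66 in WT and -3.43 in KIN, below the 3p arm in both genotypes and below the 5p arm in KIN. The share of calls that were higher in neurons rose with it from 35.7% to 94.3% in WT and from 48.0% to 95% in KIN. In WT the call of the 3p arm was also lost without astrocyte replicate 2 (-0.72, adjusted p = 0.0891) or 3 (-1.34, adjusted p = 0.0571) and without neuron replicate 1 (-1.07, adjusted p = 0.0783) or 3 (-1.09, adjusted p = 0.105).

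Of the 10 listed neural miRNAs, 8 were lower in neurons than in astrocytes in WT and 8 of 9 tested in KIN, beside 212 of 362 and 330 of 397 of all mature miRNAs, so that the count in KIN is near that of miRNAs in general. Among the 8 was mmu-miR-124-3p at -4.12 and -3.67. miRNA-based factors gave calls for 3104 of 5916 features in WT and 4266 of 5001 in KIN. With them the counts of the listed miRNAs became 3 lower and none higher in WT, and 3 lower and 4 higher in KIN. Their part in the result was not tested.

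**Figure D2:**
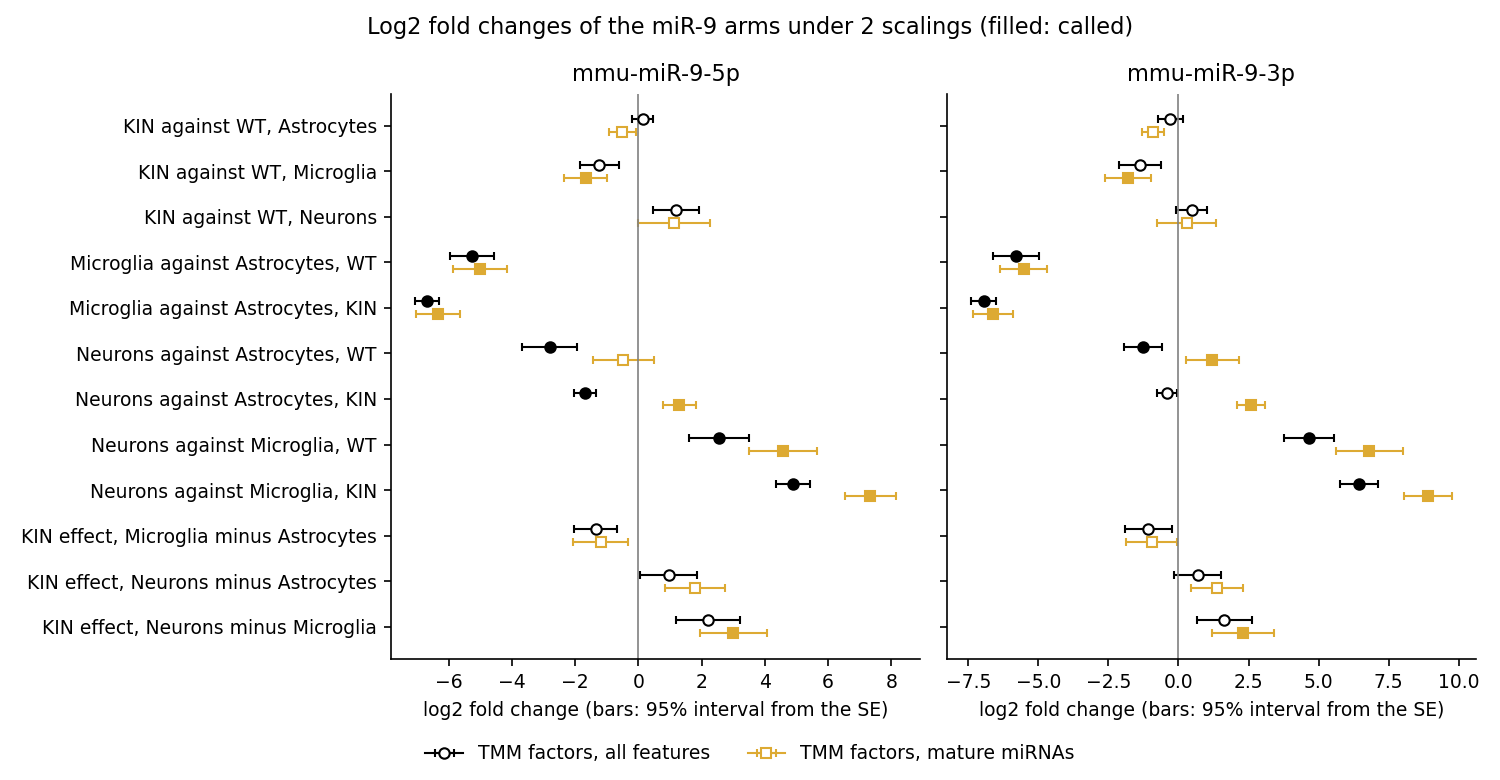
Log2 fold changes of both arms in the 12 comparisons, with bars of the 95% interval (normal quantile times SE, narrower than the F test implies), under TMM factors from all features (circles) and from mature miRNAs only (squares), filled where called. Neurons against astrocytes in KIN moves from -1.69 to 1.30 for the 5p arm, while microglia stay far below astrocytes under both.

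The question of the study, KIN against WT within a fraction, found no call for either arm. In astrocytes the 5p arm was not called (log2 fold change 0.13, SE 0.16, 95% interval -0.19 to 0.45, edgeR adjusted p = 0.603), and the 3p arm was at -0.29 (SE 0.22, interval -0.73 to 0.15, adjusted p = 0.383), while 8.18% of features were called. The direction of both changed with the libraries used. Without WT replicate 1 the 5p value became -0.06, without WT replicate 2 it was 0.35 (adjusted p = 0.0218, under the fold for a call), and with miRNA-based factors -0.50 (adjusted p = 0.0859), while the 3p value became 0.05 without WT replicate 2. With miRNA-based factors the 3p arm was at -0.90 (adjusted p = 0.0156), below the fold needed for a call, and the median of all features moved from -0.19 to -0.87, with 102 of 466 calls higher in KIN before and 16 of 1338 after. Beside this, mature miRNAs took 5.05% to 8.30% of counts in WT astrocytes and 8.43% to 10.3% in KIN, and fragments of astrocyte messenger RNAs summed to 240 to 280 CPM in WT and 80.0 to 106 CPM in KIN, with 7 of 27 tested transcripts called lower. Oligodendrocyte miRNAs stood at 1770 to 3035 CPM in WT and 3351 to 5112 CPM in KIN, those of ependyma and choroid plexus at 1410 to 2192 and 2626 to 2965 CPM, and those of microglia at 10.2 to 12.6 and 25.0 to 48.5 CPM. Fragments of oligodendrocyte messenger RNAs went the other way, at 20.3 to 22.9 CPM in WT and 11.1 to 12.5 CPM in KIN. miRNAs of neurons, endothelium, mural cells and erythroid cells overlapped between genotypes. Over all mature miRNAs tested, the median log2 fold change was 0.58. The part of these shifts in the miR-9 values was not tested.

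In microglia both arms were lower in every KIN library than in any WT library, but neither passed the call. The 5p arm was at -1.24 (SE 0.31, 95% interval -1.85 to -0.62, edgeR adjusted p = 0.0559) and the 3p arm at -1.38 (SE 0.39, interval -2.14 to -0.63, adjusted p = 0.0714), with 4.35% of features called. Both were called with miRNA-based factors, with no filter on low counts, by DESeq2 and in one fit of all 18 libraries. The miRNA-based factors moved the median of all features from -0.11 to -0.55 and the share of calls higher in KIN from 32.6% to 6.17%. WT replicate 2 lay nearest to the KIN libraries, with 17884 features detected where WT replicates 1 and 3 had 27713 and 29541. Without it both arms were called (-1.53, adjusted p = 0.00164, and -1.69, adjusted p = 0.00288).

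Summed levels of several other marker lists were also lower in KIN microglia. The 4 neuronal miRNAs summed to 64.5 to 168 CPM in WT and 51.5 to 60.7 CPM in KIN microglia, and 1 of them, mmu-miR-124-3p, was called lower (-1.28, SE 0.31, edgeR adjusted p = 0.0485). Fragments of astrocyte messenger RNAs summed to 3.45 to 11.8 CPM in WT and 1.85 to 2.33 CPM in KIN, where Gfap, the intermediate filament of astrocytes, was at 0. Neuronal messenger RNAs summed to 2.02 to 12.3 CPM in WT and 0.233 to 1.39 CPM in KIN, where Syt1, Rbfox3 and Nefh were at 0, and those of oligodendrocytes to 4.90 to 6.27 and 0.931 to 1.85 CPM, with Olig2 and Mog at 0 in KIN. Messenger RNAs of microglia themselves summed to 96.7 to 140 CPM in WT and 58.8 to 86.9 CPM in KIN. miRNAs of mural cells summed to 145 to 202 CPM in WT and 59.4 to 136 CPM in KIN. Microglial miRNAs, at 2835 to 3389 CPM in WT and 3097 to 5914 CPM in KIN, were not lower. Nor were erythroid miRNAs, at 17.3 to 22.2 and 28.6 to 131 CPM. Oligodendrocyte miRNAs, at 31.1 to 33.5 CPM in WT and 28.6 to 43.3 CPM in KIN, overlapped. So did endothelial miRNAs, at 215 to 265 CPM in WT and 118 to 236 CPM in KIN. miRNAs of ependyma and choroid plexus also overlapped, at 220 to 291 CPM in WT and 225 to 330 CPM in KIN. The part of these cells in the miR-9 values was not tested.

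In neurons the 5p arm was higher in every KIN library than in any WT library, at a log2 fold change of 1.19 (SE 0.37, 95% interval 0.46 to 1.92), but with an edgeR adjusted p = 0.917 it was far from the threshold. The 3p arm was at 0.48 (SE 0.28, interval -0.08 to 1.03, adjusted p = 0.917). In this fraction edgeR called 0% of 4535 features, with 197 at an unadjusted p under 0.05, and DESeq2 called 0. The 5p arm was called with no filter on low counts (1.33, adjusted p = 0.0137) and without WT replicate 2 (1.62, adjusted p = 0.0422). That replicate had the highest 5p level of the WT libraries and oligodendrocyte miRNAs at 111 CPM, where the remaining WT neuron libraries had 0.655 and 4.95 CPM. Neuronal messenger RNAs summed to 30.1 to 52.1 CPM in WT neurons and 11.9 to 17.3 CPM in KIN neurons. Their part in the miR-9 values was not tested.

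Of the 3 differences between fractions in the effect of KIN on the 5p arm, that of neurons minus microglia was largest, with both effects in opposite directions, at 2.20 (SE 0.52, 95% interval 1.18 to 3.23) for neurons minus microglia. With an edgeR adjusted p = 0.0556 the difference missed the threshold (with the replicate number as a block it was 2.28, adjusted p = 0.00167, and called), as did that of the 3p arm (1.64, SE 0.49, adjusted p = 0.154), and 0.639% of features were called. For microglia minus astrocytes the 5p difference was -1.35 (SE 0.34, adjusted p = 0.0893) and the 3p difference -1.08 (SE 0.43, adjusted p = 0.358), with 0.312% called. Neurons minus astrocytes gave 0.96 (SE 0.46, adjusted p = 0.584) and 0.68 (SE 0.42, adjusted p = 0.648), and here edgeR called 0% of 7084 features, with 598 at an unadjusted p under 0.05, and DESeq2 called 0. Without microglia WT replicate 2, neurons minus microglia and microglia minus astrocytes were called for both arms (5p 2.44 and -1.62, 3p 1.89 and -1.36), and without astrocyte WT replicate 2 microglia minus astrocytes was called for both (-1.81 and -1.67). Neurons minus microglia was also called without neuron WT replicate 2 (5p 3.06, 3p 2.16) and, for the 5p arm alone, without neuron WT replicate 1 (1.91).

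The balance of both arms does not depend on library scaling, and the 3p share of every neuron library was above that of every glial library. It covers only reads placed on the mature arms. Reads counted on hairpin and host transcripts were not assigned to an arm. They held on average 25.7% of the counts of miR-9 sequences in neurons and 17.3% to 19.2% in glia, and their part in the share was not tested. The 3p arm made up 46.1%, 27.8% and 36.0% of both arms' counts in WT neurons and 25.2%, 26.0% and 21.3% in KIN neurons. In astrocytes it made up 13.8%, 16.4% and 14.0% in WT and 12.4%, 11.5% and 11.0% in KIN. In microglia it made up 10.8%, 10.1% and 10.9% in WT and 10.8%, 9.46% and 9.30% in KIN. Exact (Clopper-Pearson) 95% intervals, which cover counting error only, spanned 43.2% to 49.0% for the highest neuron library and 6.05% to 13.5% for the lowest microglia library.

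With fraction labels permuted within each genotype (400 regroupings), the mean 3p share was higher in neurons than in astrocytes by 17.2 percentage points (30.4% against 13.2%) and than in microglia by 20.2 points (30.4% against 10.2%). Microglia minus astrocytes was -2.96 points. Each of these 3 exact two-sided permutation tests gave p = 0.005, the smallest this test can give, and an adjusted p = 0.01 over 6 tests, with n = 6 libraries in each fraction. This test treats the fractions as independent, which libraries from the same brains are not. When differences were instead taken within replicate numbers, an exact sign-flip test gave p = 0.03125 for each, also its smallest. Its adjusted p = 0.0625 over the 6 tests was the lowest it could reach. With so few pairs this test could not pass the threshold, so it does not decide the question. The difference between neurons and astrocytes was in the same direction in 6 of 6 pairs of group and number. Any pairing would give this, since every neuron library lay above every astrocyte library.

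Between genotypes, the 3p share differed by -12.5 percentage points, KIN minus WT, in neurons (24.2% ± 2.48 against 36.7% ± 9.14, SD, n = 3 each) and by -3.09 points in astrocytes (11.6% ± 0.737 against 14.7% ± 1.42), in both cases without overlap. The exact two-sided permutation p was 0.1, the smallest that 3 against 3 allows, so that the threshold could not be reached (adjusted p = 0.12). Microglia differed by -0.786 points with overlapping libraries (exact permutation p = 0.2, adjusted p = 0.2). Without WT replicate 1, the shallowest library, the difference in neurons was -7.77 points, and without WT replicate 2 it was -16.9 points.

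**Figure D3:**
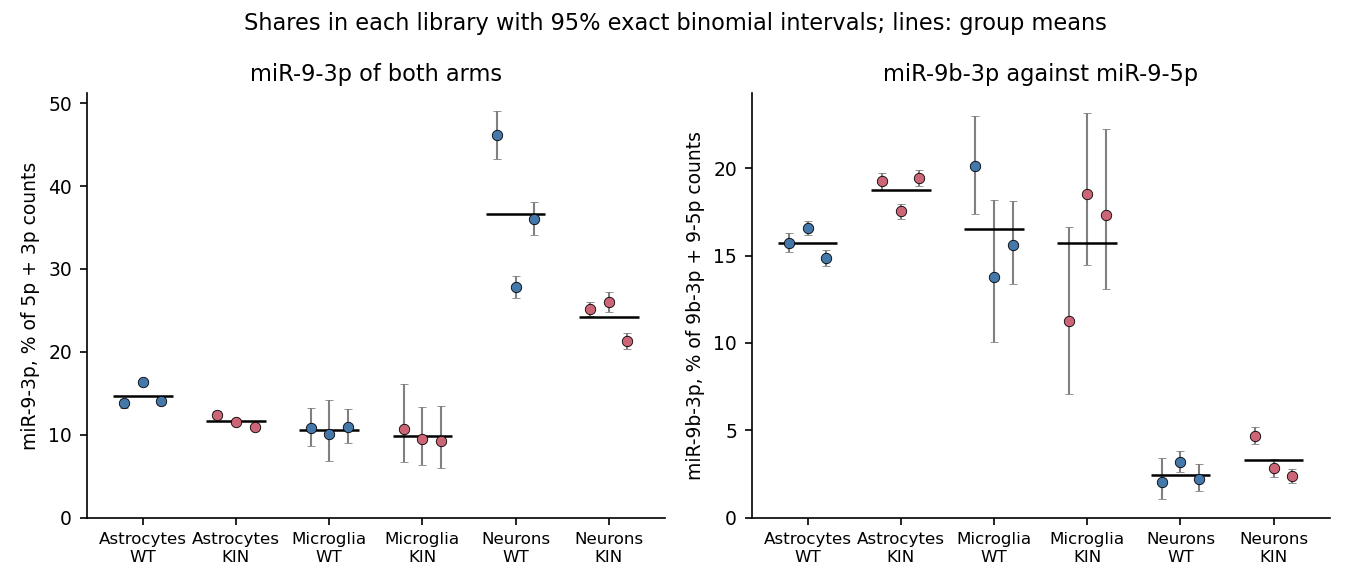
Share of the 3p arm among both arms (left) and of miR-9b-3p among miR-9b-3p and miR-9-5p (right) in percent, each point a library with its exact 95% interval and each line a group mean. The 3p share is above 21% in all neuron libraries and at most 16.4% in all glial ones, while the miR-9b-3p share is at most 4.68% in neurons and at least 11.2% in glia.

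Counts named mmu-miR-9b-3p, the reverse complement shown above, took a smaller share in neurons than in glia. Of the sum of miR-9b-3p and miR-9-5p they made up 15.7%, 16.6% and 14.8% in the WT libraries of astrocytes and 19.2%, 17.5% and 19.5% in the KIN libraries. The mean was 16.5% ± 3.26 in WT microglia and 15.7% ± 3.92 in KIN microglia, but 2.47% ± 0.621 in WT neurons and 3.30% ± 1.22 in KIN neurons (SD, n = 3). Tests of this share were added after its values had been seen. Neurons minus astrocytes was -14.3 percentage points and neurons minus microglia -13.2 points (exact permutation p = 0.005 each, adjusted p = 0.015 over 6 tests, n = 6 libraries per fraction). The sign-flip test within numbers gave an adjusted p = 0.09375, but with so few pairs it could not have passed the threshold. Microglia minus astrocytes was -1.14 points (exact permutation p = 0.515, adjusted p = 0.618).

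As strand was not used, the counts of both names were also summed. Adding mmu-miR-9b-3p to mmu-miR-9-5p changed no call of the 5p arm in any of the 12 comparisons. It also left the 3p share of neurons above that of astrocytes (29.8% against 11.2%) and microglia (8.73%), at an exact permutation p = 0.005 and an adjusted p = 0.015. As a feature of its own, mmu-miR-9b-3p was lower in neurons than in astrocytes by a log2 fold change of -5.55 (SE 0.64, edgeR adjusted p = 0.00180) in WT and -4.37 (SE 0.26, adjusted p = 1.03e-17) in KIN, against -2.81 and -1.69 for mmu-miR-9-5p. mmu-miR-9b-5p had 19 counts over the 18 libraries.

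Further miR-9 reads were counted on longer transcripts. The hairpin transcripts Mir9-1-201, Mir9-2-201 and Mir9-3-201 and the host transcript C130071C03Rik-201, whose gene is named Mir9-2hg in GENCODE vM39, together held 19.2% ± 0.356 of the counts of miR-9 sequences in WT astrocytes, 17.7% ± 0.486 in KIN astrocytes, 18.0% ± 0.534 and 17.3% ± 0.669 in WT and KIN microglia, and 25.7% ± 0.657 and 25.7% ± 0.615 in WT and KIN neurons (SD, n = 3). Each of these 4 transcripts held 21.5% to 30.9% of that pool in astrocyte and neuron libraries and 13.3% to 37.8% in microglia, where the pool was 45 to 235 counts per library, and they do not show which locus was expressed. The other 4 transcripts of C130071C03Rik had 17 counts over the 18 libraries and the 7 of Mir9-3hg had 9.

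The hairpin and host features were tested as features of their own. In microglia, KIN against WT, Mir9-2-201 was called lower (-1.76, SE 0.39, edgeR adjusted p = 0.0402), while Mir9-1-201 (-1.33), Mir9-3-201 (-0.87) and C130071C03Rik-201 (-1.46) were not called. In neurons their values were 0.91 to 1.07 with adjusted p = 0.917, and in astrocytes -0.05 to 0.04. Neurons minus microglia was called for Mir9-2-201 (2.61, SE 0.57, edgeR adjusted p = 0.0421). As these features share the sequence of both arms, their values are uncertain one by one.

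**Figure D4:**
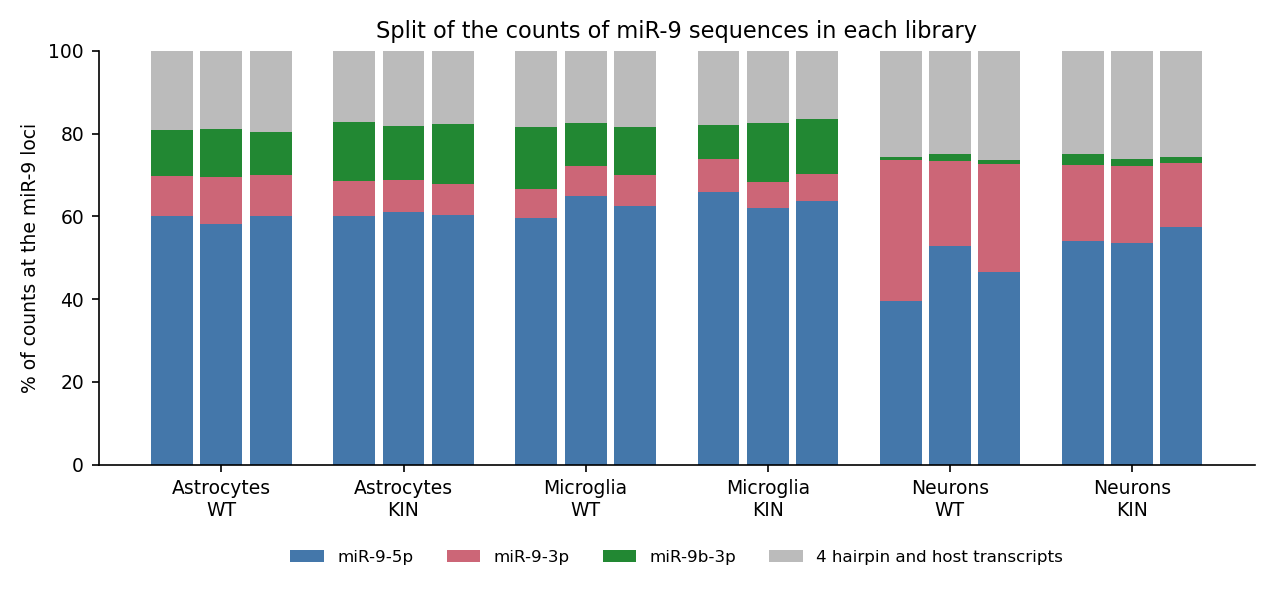
Split of the counts of miR-9 sequences among miR-9-5p, miR-9-3p, miR-9b-3p and 4 hairpin and host transcripts, in percent, 1 bar per library. Neuron bars show a larger 3p part and almost no miR-9b-3p, with hairpin and host features at 25.7% against 17.3% to 19.2% in glia.

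Among 176 mature miRNAs with a mean of at least 10 CPM, the levels most like those of mmu-miR-9-5p over the 18 libraries, by Pearson's r of log2(CPM + 1), were mmu-miR-153-3p (0.97), mmu-miR-9-3p (0.96), mmu-miR-195a-5p (0.95), mmu-miR-100-5p (0.95) and mmu-miR-149-5p (0.93). The points share library depth and fall into the 3 fractions, so that r follows differences between fractions as well as within them. After centring on the 6 group means, r was 0.85 for mmu-miR-153-3p, 0.87 for mmu-miR-9-3p, 0.70 for mmu-miR-195a-5p, 0.39 for mmu-miR-100-5p and 0.70 for mmu-miR-149-5p. mmu-miR-153-3p, a brain miRNA, was at 22.8 and 28.0 CPM in WT and KIN astrocytes, 4.22 and 0.754 CPM in microglia and 11.6 and 15.1 CPM in neurons.

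Fragments of known miR-9 target messenger RNAs were sparse, since the libraries were made for small RNA. The 15 genes on the list had 125 transcripts in the table, of which 2 were tested in astrocytes, 2 in microglia and 8 in neurons for KIN against WT, and none was called by edgeR. Over all features, 8.18% were called in astrocytes, 4.35% in microglia and 0% in neurons. With so few transcripts tested, the lack of calls says little about the targets. With miRNA-based factors 1 was called lower in astrocytes, where 1338 of 5694 features were called, 16 of them higher in KIN. The list summed to 12.1 to 22.6 CPM in WT and 7.80 to 11.9 CPM in KIN astrocytes, 4.03 to 24.8 and 4.13 to 7.88 CPM in microglia, and 48.0 to 99.1 and 50.7 to 81.7 CPM in neurons. The highest of them in each group was Map1b, a microtubule-associated protein of growing axons. Onecut1 was at 0 in all 6 groups, and Nr2e1 was at 0 in microglia and neurons.

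By summed level per gene, fragments of several targets were most abundant in neurons. Map1b had means of 31.3 CPM in WT and 22.9 CPM in KIN neurons, 9.16 and 4.04 CPM in astrocytes and 7.74 and 1.74 CPM in microglia. Stmn1, a regulator of microtubules, had 23.8 and 21.4 CPM in neurons and at most 1.41 CPM in the other groups, and Meis2, a homeobox transcription factor, had 7.09 and 10.3 CPM in neurons and at most 1.26 CPM elsewhere. In KIN, 9 target transcripts passed the filter on low counts when neurons were compared with astrocytes and 1 when microglia were, so that the neuron libraries largely decided which were tested, and no count of calls between fractions is given for them.

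Of 12 genes of miRNA processing and silencing, 1 transcript of Dgcr8, the partner of Drosha, was called in the 9 comparisons of groups, higher in KIN neurons than in KIN astrocytes (1.12, SE 0.49, edgeR adjusted p = 0.0481), out of 4 to 8 transcripts tested in each. In that comparison 7 transcripts of the list were tested, and 46.3% of all features were called. Over all features, calls made up 28.0% to 53.0% between fractions and 0% to 8.18% for KIN against WT. No transcript of this list was called for KIN against WT, except that 1 of 7 was lower in astrocytes with miRNA-based factors. In that setting 1338 of 5694 features were called in astrocytes, 16 of them higher in KIN. Those factors made all 7 tested higher in KIN neurons than in KIN astrocytes, as were 4053 of all 5001 features.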

How the data were processed

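Small RNA libraries of 18 brain cell fractions were used, and groups and replicate numbers were taken from the sample labels. Per the labels and the study's methods, RNA was extracted with TRIzol and a GenXPro small RNA kit with molecular identifiers was used. The authors trimmed reads with Cutadapt 4.6, placed them with Bowtie2 2.4.4 in successive rounds (mature miRNAs first, then tRNAs, piRNAs and Ensembl transcripts, with mm39 as the named build) and counted with HTSeq 2.0.2 without use of strand. The deposited values used are these raw counts per feature. Each round took the reads left by the one before, so counts on hairpin transcripts come from reads that were not placed on mature miRNAs. Another 36 columns of per-library values and the authors' columns of group means and comparisons were not used.

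Counts were tested with edgeR 4.0.16 (limma 3.58.1, R 4.3.3) in fits of the 6 libraries of each comparison, or 12 for differences of the KIN effect. A feature entered when 2 or more libraries held 5 or more counts of it. DESeq2 1.42.0 was an alternative. CPM rest on library totals without TMM factors. SE is the log2 fold change over the root of F, and 95% intervals were taken from it with the normal quantile. They are narrower than the F test implies, so an interval can exclude 0 where p exceeds 0.05. This held for the KIN effect of neurons minus astrocytes on mmu-miR-9-5p (0.06 to 1.87, edgeR unadjusted p = 0.0519). Shares were compared by exact permutation. The fits were tested on simulated data.

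Per the study's methods, the 3 libraries of a group come from separate animals and the 3 fractions from the same brains, but no source used here says which number is which brain, so fits without a block treat fractions as independent. The members, lists and tests were chosen with earlier results of these data known. Named features were both arms, features of their loci, miRNAs with the same seed, the 5 miRNAs most alike, and list members that were called or had the largest counts, of which 1 is not reported here. Alternatives were other scalings, no filter, a replicate block, 1 fit of all libraries and the omission of each library.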

Additional observations from a re-analysis of the deposited data

Results flagged for a closer look

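The estimated effect of KIN on mmu-miR-9-5p ran in opposite directions in neurons and microglia, but neither was called. It was 1.19 in neurons (edgeR adjusted p = 0.917) and -1.24 in microglia (edgeR adjusted p = 0.0559). All 3 KIN libraries were higher than all 3 WT libraries in neurons, though only by 1668 against 1635 CPM, and all 3 were lower in microglia. This separation was itself the condition for the closer look. The difference between both effects was 2.20 on the log2 scale (SE 0.52). The test of that difference gave an edgeR adjusted p = 0.0556, which misses the threshold. No other result met the conditions for a closer look, and groups of 3 libraries were too small for a check of single outlying libraries.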

How the results depend on the processing

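The calls of both arms between microglia and astrocytes and between neurons and microglia held under every alternative, in both genotypes. With TMM factors from mature miRNAs, mmu-miR-9-5p reversed in astrocytes, KIN against WT (-0.50), lost its call for neurons against astrocytes in WT (-0.48) and reversed in KIN (1.30), and mmu-miR-9-3p reversed in both (1.21 and 2.58). The cause was not tested.

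In microglia, KIN against WT was called for the 5p and 3p arms with miRNA-based factors (-1.67 and -1.82), no filter (-1.30 and -1.45), DESeq2 (-1.19 and -1.34) and one fit of 18 libraries (-1.22 and -1.36). In neurons the 5p arm was called with no filter (1.33). The KIN effect of neurons minus microglia was called for the 5p arm with library totals (2.69), miRNA-based factors (3.00), no filter (2.67), DESeq2 (2.42), the replicate block (2.28) and one fit of 18 libraries (2.51), and for the 3p arm with miRNA-based factors (2.31), DESeq2 (1.87) and one fit (1.98).

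Leaving out 1 library at a time gave ranges for the 5p and 3p arms of -0.058 to 0.35 and -0.52 to 0.050 in astrocytes (reversed without WT replicate 1 and WT replicate 2, respectively), -1.53 to -1.02 and -1.69 to -1.14 in microglia, and 0.88 to 1.62 and 0.21 to 0.59 in neurons for KIN against WT. Neurons against astrocytes in WT ranged from -3.30 to -2.41 and from -1.45 to -0.72. Microglia minus astrocytes ranged from -1.81 to -1.11 and from -1.67 to -0.82, and neurons minus microglia from 1.91 to 3.06 and from 1.38 to 2.16. The miR-9b-3p share in microglia, KIN minus WT, ranged from -2.22 to 1.43 percentage points and reversed without WT replicate 1 (1.00) or KIN replicate 1 (1.43).

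The fractions came from shared brains, and the labels do not tie replicate numbers to brains. In no comparison of groups did every library match its own number best by deviations from group means. Even so, r of libraries with the same number was positive throughout the WT comparisons of fractions. It was 0.29, 0.35 and 0.04 for microglia and astrocytes and 0.13, 0.25 and 0.009 for neurons and microglia. Between KIN fractions it ran from -0.26 to 0.17. In WT neurons and astrocytes r was 0.15, 0.31 and 0.11. There the blocked calls of both arms were unchanged (-2.94 and -1.21). Xist was low in KIN replicate 1 of each fraction (1.27 to 2.13 CPM), and whether a number marks a brain was not tested otherwise. With so few pairs, the paired sign-flip test could not reach the threshold for either share. The calls of both shares thus rest on the test that treats fractions as independent. The sign-flip test gave an adjusted p = 0.0625 for the 3p share (differences of -2.96, 17.2 and 20.2 points). For the miR-9b-3p share (-14.3 and -13.2 points) it gave an adjusted p = 0.09375. With the block, 49 features in place of 215 were called in microglia, 75 in place of 22 for microglia minus astrocytes, 113 in place of 41 for neurons minus microglia and 20 in place of 0 for neurons minus astrocytes. Without 1 library the number of calls ranged from 41 to 1527 in astrocytes (466 with all), 0 to 940 in microglia and 0 to 52 in neurons for KIN against WT, from 911 to 1940 for neurons against astrocytes in WT (1698 with all), from 867 to 1683 for neurons against microglia in WT (1446), and from 0 to 362, 0 to 2 and 0 to 120 for microglia minus astrocytes, neurons minus astrocytes and neurons minus microglia. With miRNA-based factors there were 1338 calls in astrocytes, 389 in microglia and 26 in neurons, 3104 (WT) and 4266 (KIN, 2314 before) for neurons against astrocytes, 3178 (WT) and 3940 (KIN, 2584 before) for neurons against microglia, and 0 for microglia minus astrocytes and 112 for neurons minus microglia. With no filter there were 426 in microglia, 75 in neurons, and 108, 5 and 100 for the 3 differences in the order above. DESeq2 made 378 calls in microglia and 136 and 139 for microglia minus astrocytes and neurons minus microglia. One fit of 18 libraries made 159 in astrocytes, 334 in microglia, 2674 for neurons against astrocytes in WT, and 12 and 101 for the latter 2 differences. Library totals made 53 for microglia minus astrocytes. KIN microglia held 20 to 28 counts of the 3p arm per library, which limits its precision.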
